A study of Mus musculus with 24 samples.

Results

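Ubb and Rps27a are the ubiquitin-coding genes described here. They were taken by gene symbol from 55401 genes counted in gastrocnemius muscle of C57BL6 male mice, and both are present in the counts. Young mice, bought at 4 weeks, and adult mice, bought at 10 weeks, were kept for a week and then either scalded over 25% of the body surface or handled as sham animals. Muscle was taken 24 h later, and poly-A mRNA of 3 mice per group was sequenced, giving 12 libraries: young burn and young sham, adult burn and adult sham. All mice received the anaesthetic and buprenorphine, and burned mice also received lactated Ringer's solution, so that burn and this fluid cannot be told apart. The gastrocnemius lies away from the burned skin of the trunk.

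Ubiquitin is a small protein that is joined to other proteins and marks many of them for breakdown by the proteasome. Mammals make it only as longer precursors that deubiquitinases cut into single units: Ubb encodes polyubiquitin, with units joined head to tail, while Rps27a encodes a single unit fused to a protein of the small ribosomal subunit. Ubb is known to be inducible by heat and proteotoxic stress, and the ubiquitin-proteasome system is a main route of myofibrillar protein loss in wasting muscle.

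In the mouse genome (GRCm38, Gencode gene models) Ubb lies on the plus strand of chromosome 11 at chr11:62551171-62553213, with 2 exons, a transcript of 1499 bases and a coding sequence of 915 bases that holds 4 ubiquitin units. Rps27a lies on the minus strand at chr11:29545846-29548109, with 6 exons, a transcript of 791 bases and a coding sequence of 468 bases, of which 1 unit is ubiquitin and the following 240 bases encode the ribosomal part. The first unit of Ubb (chr11:62552146-62552373, plus strand, coding exon) and the unit of Rps27a (chr11:29546384-29547728, minus strand, joined across coding exons) are printed because a read can be given to one gene or the other only where they differ. Capitals mark the 44 of 228 bases that differ.
Ubb unit 1: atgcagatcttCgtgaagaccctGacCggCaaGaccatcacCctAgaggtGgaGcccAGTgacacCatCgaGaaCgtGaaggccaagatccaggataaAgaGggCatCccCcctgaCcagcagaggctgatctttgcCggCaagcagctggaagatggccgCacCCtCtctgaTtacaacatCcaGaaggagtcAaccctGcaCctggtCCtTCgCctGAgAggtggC
Rps27a unit: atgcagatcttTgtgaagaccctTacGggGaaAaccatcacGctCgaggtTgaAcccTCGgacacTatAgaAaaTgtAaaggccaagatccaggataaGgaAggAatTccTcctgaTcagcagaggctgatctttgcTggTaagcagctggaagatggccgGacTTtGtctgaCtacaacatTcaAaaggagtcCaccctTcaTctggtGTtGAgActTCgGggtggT
The differences fell in 38 of 76 codons, and 0 of these codons changed the encoded residue, so the mRNAs differ here but the ubiquitin does not. The 4 units of Ubb shared 95.6% to 99.1% of their bases with each other and 80.7% with the unit of Rps27a.

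Sequence shared within Ubb and with further genes bounds what the counts can hold, since the aligner's gene counting keeps only reads with a single best place. Ubb and Rps27a shared no run of 75 bases with each other. Of the 1425 windows of 75 bases in the Ubb transcript, 35.1% were found at a single place among all annotated transcripts, 28.6% were repeated within Ubb itself and 56.8% were also found in another gene, mostly the pseudogene Gm1821. Of the 717 windows of Rps27a, 32.5% were found at a single place and 67.5% were also found in another gene. Reads were paired, and a pair can be placed where a single read cannot. By these windows both genes had about the same share of single-place sequence, and in Ubb 333 of the 500 single-place windows lay in the 5' untranslated region. Gm1821 itself had 11 to 69 counts per library, with the 69 in young burn replicate 2, and named pseudogene counts amounted to at most 0.823% of the Ubb count and 0.702% of the Rps27a count in any library. The sources used here do not say whether counting used strand. Rps27a overlaps Clhc1 on the opposite strand, and 86 of its windows counted as found in another gene matched Clhc1. Reads there can have a single place in the genome, so the share of Rps27a open to counting may exceed 32.5%.

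Total counts per library ran from 4392605 to 5688512. The study's quality report gave no RNA integrity number for any of these samples. Its ratios of large to small ribosomal RNA were higher in some adult sham samples than in every adult burn sample. The part of RNA quality in the counts was not tested. Library young burn replicate 2 stood apart: 41.6% of the 12408 genes tested lay outside the range of the other 11 libraries there, against 7.96% to 23.7% for each other library. In a heatmap legend the study states that 1 young burn animal was excluded as an outlier, without naming it. Whether its other analyses held that animal is not stated. The study's numbers of changed genes lie nearer to DESeq2 calls without young burn replicate 2 than to those on all 12 libraries. Each comparison is therefore given with all 12 libraries and with the 11 libraries that remain without young burn replicate 2. Summed markers of skeletal muscle fibres were between 95910 and 200400 CPM (read counts scaled by library total and TMM factor) in every library. The lowest value was in young burn replicate 2. Of 5 keratinocyte markers, 3 were at 0 in every library, while Krt10 was at 4.56 to 10.9 CPM and Lor at 0 to 0.503.

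Ubb mRNA was highest in adult burn muscle apart from young burn replicate 2. In CPM, Ubb stood at 717, 900 and 848 in the adult burn libraries and at 534, 577 and 480 in the adult sham libraries. In the young sham libraries it stood at 533, 460 and 628 CPM. In the young burn libraries it stood at 483, 1558 and 465 CPM, the 1558 in replicate 2. The adult burn values lay above every sham value, and 2 of the 3 young burn values lay within the young sham range. Group means were 822 ± 94.2 CPM in adult burn, 540 ± 84.3 in young sham and 531 ± 48.6 in adult sham (SD, n = 3 each). The young burn mean was 835 ± 626 CPM (n = 3), and 468 ± 12.4 (n = 2) when replicate 2 was left out and the libraries were scaled anew. In that order of 11 libraries, adult burn came first, followed by young sham, adult sham and young burn, and the last 3 groups did not differ from their neighbours beyond their spread.

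Rps27a mRNA hardly moved. Its level was 352, 347 and 347 CPM in young sham, 362, 326 and 352 in young burn, 301, 332 and 312 in adult sham and 355, 314 and 325 in adult burn. The highest of the 12 values was 1.2 times the lowest, whereas for Ubb the highest was 3.39 times the lowest, or 1.96 times among 11 libraries. The coefficient of variation of Rps27a over 11 libraries was 6.12%, and 1.08% of 12651 genes tested had a lower value, against a median over genes of 19.5%. The same coefficient for Ubb was 25.7%, and 67.5% of genes had a lower value. Rps27a ranked 294 (young burn) to 376 (adult sham) in abundance among detected protein-coding genes. Its coefficient was not set against genes of like abundance. The value for young burn replicate 2 lay within the range of the other libraries for Rps27a and above all of them for Ubb.

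**Figure D1:**
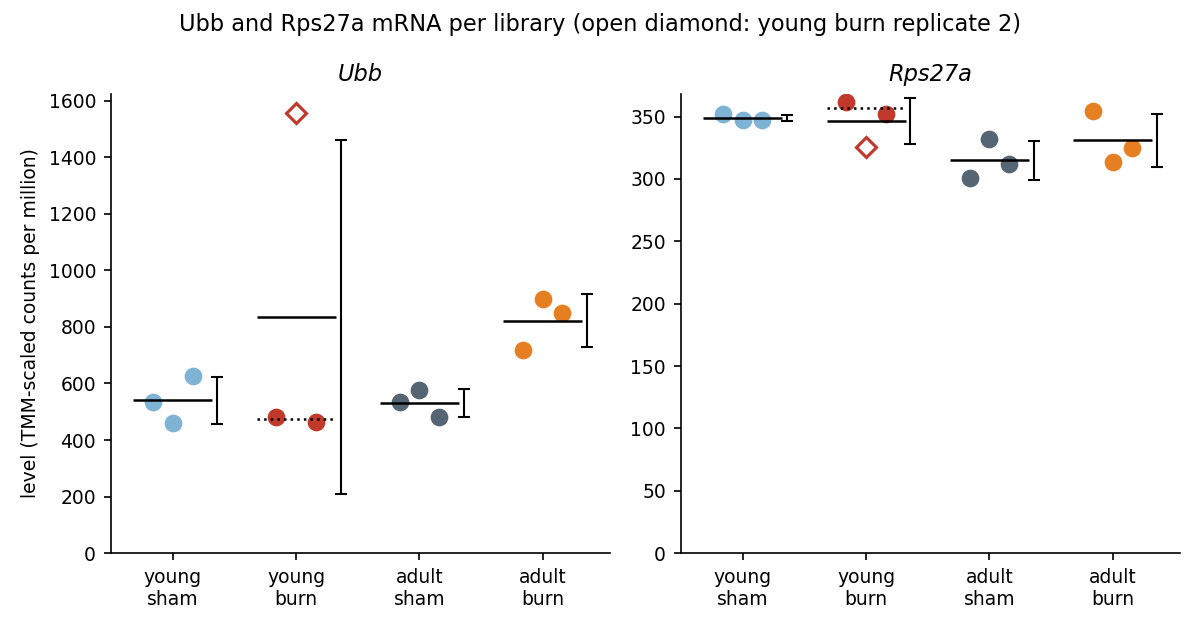
Levels of Ubb and Rps27a in CPM (vertical axes, each from 0) in the 12 libraries by group; points are libraries, solid lines group means, bars at the side the SD over 3 libraries, dotted lines the young burn mean of the plotted values without replicate 2 (open diamond). Ubb is at 717 to 900 in adult burn against 480 to 577 in adult sham, while Rps27a stays between 301 and 362 everywhere.

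The order of the 2 mRNAs per kilobase depended on the length used. By the length of 1 transcript per gene, in CPM per kb, Rps27a had a group mean of 441 ± 3.42 in young sham and 398 ± 19.8 in adult sham, and Ubb had 360.5 ± 56.2 and 354 ± 32.4 (SD, n = 3 each). In adult burn the order was the other way, with Ubb at 548 ± 62.8 and Rps27a at 418 ± 26.7 CPM per kb. In young burn replicates 1 and 3 Rps27a was the higher, with Ubb at 322 and 310 CPM per kb and Rps27a at 458 and 445. By this length Ubb lay above Rps27a in 4 of 12 libraries. By the union of all annotated exons, 1675 bases for Ubb and 1972 for Rps27a, Ubb lay above Rps27a in 12 of 12 libraries, with young sham means of 323 ± 50.3 for Ubb and 177 ± 1.37 CPM per kb for Rps27a. Which mRNA is the higher in sham muscle is therefore not settled by these counts, while the comparisons of each gene between groups do not use a length.

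The comparison of adult burn with adult sham asks what the injury does to muscle of grown mice. Ubb was 1.55-fold higher in adult burn, a log2 difference of 0.63, and the 3 adult burn values did not overlap the 3 adult sham values; 10.3% of genes tested were higher without overlap in this comparison. With 12 libraries the standard error was 0.35 and the difference did not pass the test (edgeR quasi-likelihood, adjusted p = 0.754), in a comparison where 0.00806% of genes were called. With 11 libraries the same difference of 0.63 had a standard error of 0.12 and passed the test (edgeR adjusted p = 0.0259), where 0.909% of genes were called and 0.561% were called higher. The 95% interval of the fold was 0.914 to 2.63 with 12 libraries and 1.29 to 1.85 with 11. Of 11 fits that left out a further library from the 11, 7 kept the call. The call was lost without adult sham replicate 1 (edgeR adjusted p = 0.0881), adult sham replicate 3 (0.118), adult burn replicate 2 (0.123) or adult burn replicate 3 (0.0989), at log2 differences of 0.56 to 0.64.

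Rps27a showed no call in the same comparison. Its log2 difference between adult burn and adult sham was 0.07 with 12 and with 11 libraries, with edgeR adjusted p-values of at least 0.709 in every fit that left a library out of 12 or of 11. The interval of its fold over 11 libraries was 0.919 to 1.2. In bulk tissue, fewer cells of a type and less RNA per cell cannot be told apart. Summed macrophage markers (8 genes, 0 of them at 0 in every library) were at 337 to 467 CPM in adult burn and 281 to 341 in adult sham, and neutrophil markers (9 genes, 1 at 0 in every library) at 6.87 to 15.4 and 2.33 to 6.0. Of the neutrophil markers, only S100a8 (up to 23.0 CPM), S100a9 (up to 6.88) and Csf3r (up to 1.84) exceeded 0.731 CPM in any library. The part of the macrophage and neutrophil markers in the Ubb difference was not tested.

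The comparison of young burn with young sham gave no rise of Ubb outside replicate 2. With 12 libraries the log2 difference was 0.63 (SE 0.35, edgeR adjusted p = 0.328), and the groups overlapped. Without young burn replicate 2 the log2 difference of Ubb was -0.18 (SE 0.14, edgeR adjusted p = 0.569) and the interval of the fold was 0.721 to 1.08. The share of genes called was 0.0645% with 12 and 0.664% with 11 libraries. Rps27a had log2 differences of -0.01 and 0.05 in these fits and no call. Summed macrophage markers were at 471 to 800 CPM in young burn against 276 to 375 in young sham. Neutrophil markers were at 9.61 to 27.4 against 2.03 to 4.14, and muscle fibre markers at 95910 to 127200 against 142700 to 200400. Keratinocyte markers were at 4.75 to 7.53 against 9.74 to 11.1. None of these ranges overlapped, where 10.5% of single genes tested were higher and 11.2% lower without overlap over 12 libraries. The summed markers of red blood cells, endothelial cells, fibroblasts, adipocytes and Schwann cells did overlap between young burn and young sham. The Ubb values of young burn replicates 1 and 3 lay within the young sham range, and the part of these markers in the Ubb difference was not tested.

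**Figure D2:**
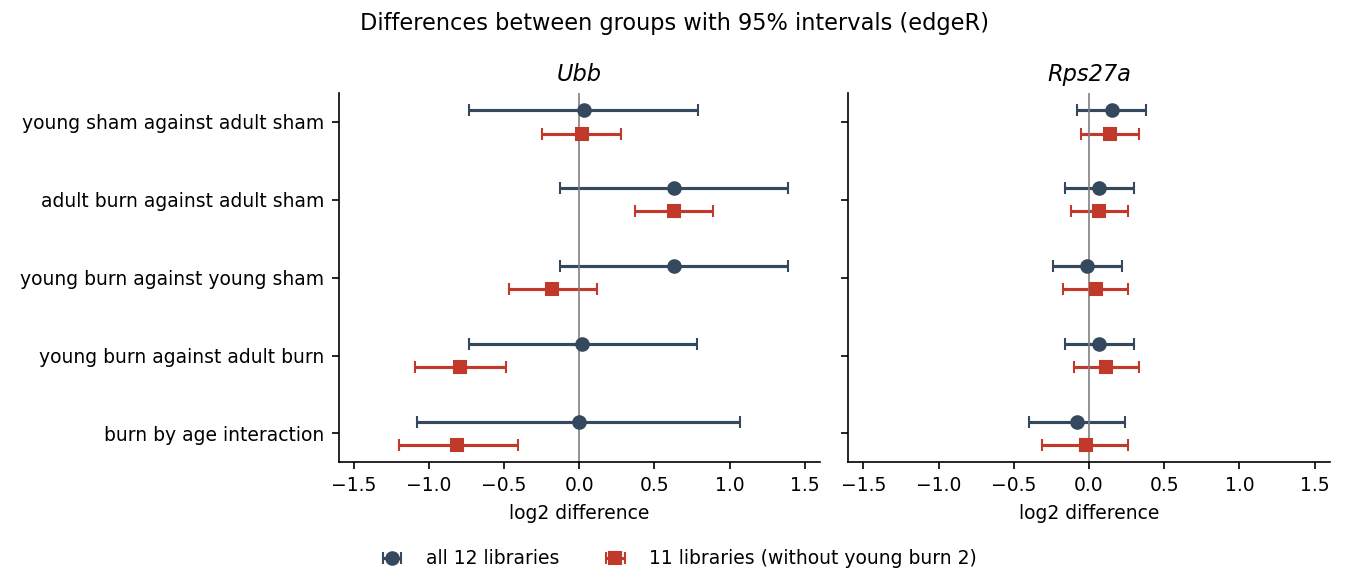
Log2 differences with 95% intervals from edgeR for Ubb and Rps27a in 4 comparisons and in the interaction of burn and age (rows); dark circles are fits on all 12 libraries and red squares fits on 11 libraries without young burn replicate 2. The Ubb interval for adult burn against adult sham runs from 0.37 to 0.89 with 11 libraries, and every Rps27a interval includes 0.

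Burned young and burned adult muscle differed in Ubb once young burn replicate 2 was left out. Ubb was then 0.579-fold in young burn relative to adult burn (log2 difference -0.79, SE 0.14, edgeR adjusted p = 0.00193), and it passed the test in all 11 fits that left out a further library (adjusted p from 0.00117 to 0.0291). In this comparison 20.7% of genes were called and 9.54% were called lower, so a call was common. The 2 young burn values lay below the 3 adult burn values, as did those of 26.3% of genes. With 12 libraries the log2 difference was 0.02 (SE 0.35, edgeR adjusted p = 0.973), with 10.8% of genes called. Rps27a had log2 differences of 0.07 and 0.11 with no call. Between these groups the summed markers of fibroblasts were at 6923 to 9054 CPM in young burn against 2871 to 3797 in adult burn, those of macrophages at 471 to 800 against 337 to 467, and those of endothelial cells at 371 to 485 against 290 to 334. None of these ranges, which include young burn replicate 2, overlapped, whereas those of the other marker lists did. Over the same 12 libraries, 15.7% of single genes tested were higher in young burn without overlap. Fibroblast markers also differed without burn, at 7880 to 8953 CPM in young sham against 2833 to 3925 in adult sham. The sham ranges overlapped for macrophages (276 to 375 against 281 to 341) and endothelial cells (325 to 426 against 310 to 336). The part of these markers in the Ubb difference was not tested.

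The difference of the burn responses between ages was tested as an interaction. For Ubb it was 0.00 on the log2 scale with 12 libraries (SE 0.50, edgeR adjusted p = 1) and -0.81 with 11 libraries (SE 0.19). With 11 libraries the unadjusted edgeR p was 0.000574 and the adjusted p was 0.186, in a test that called 12 of 12651 genes, or 0.0949%. DESeq2 on the same 11 libraries gave -0.82 with an adjusted p of 0.0101 and called 0.409% of genes. The interaction of Rps27a was -0.08 with 12 and -0.02 with 11 libraries, with no call by either tool.

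Between the sham groups no difference in Ubb was detected. The log2 difference of young sham against adult sham was 0.03 (SE 0.35, edgeR adjusted p = 0.979) with 12 and 0.02 (adjusted p = 0.949) with 11 libraries, where 3.76% and 11.8% of genes were called. The interval of the fold over 11 libraries was 0.843 to 1.21. For Rps27a all 3 young sham values lay above all 3 adult sham values, as was the case for 15.7% of genes, with a log2 difference of 0.15 and no call. The interval of its fold was 0.944 to 1.3 with 12 libraries.

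The ratio of Ubb to Rps27a counts within a library does not depend on depth or scaling. It was 2.02, 2.87 and 2.61 in adult burn and 1.77, 1.74 and 1.54 in adult sham, with no overlap. In young sham the ratio was 1.51, 1.32 and 1.81, and in young burn it was 1.33, 4.78 and 1.32. The adult burn ratio was 1.47-fold the adult sham ratio (two-sided exact permutation test, p = 0.1, the smallest that 3 against 3 libraries allow; Benjamini-Hochberg over 4 comparisons, 0.4 with 12 and 0.2 with 11 libraries). With young burn replicate 2 left out, the young burn ratio was 0.536-fold the adult burn ratio (exact permutation p = 0.1, again the smallest possible, and 0.2 after adjustment over 4 comparisons). With all 12 libraries it was 0.822-fold (exact permutation p = 0.8, adjusted 0.9).

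The number of ubiquitin units that the mRNAs carry was set out by multiplying each CPM per kb by the units in the coding sequence. For Ubb and Rps27a together this gave 2362, 2798 and 2674 in adult burn and 1806, 1960 and 1676 in adult sham. The young sham libraries had 1868, 1666 and 2115, and the young burn libraries 1746, 4569 and 1685. Ubb accounted for 73.6% to 85.8% of this sum in 11 libraries and for 91% in young burn replicate 2, because each of its mRNAs carries 4 units. With union exon lengths the share of Ubb was 86.1% to 95.7%. Adult burn means were 2611 ± 225 and adult sham means 1814 ± 142 units (SD, n = 3 each). The sum describes mRNA and does not measure ubiquitin protein.

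**Figure D3:**
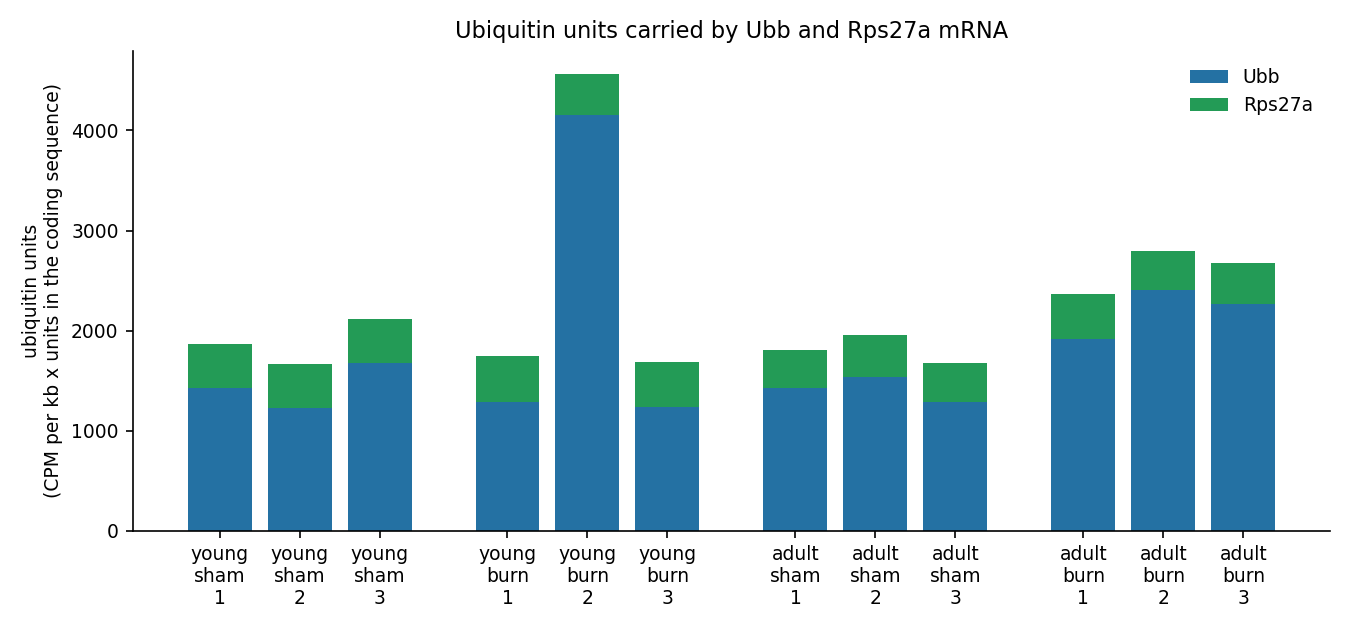
Ubiquitin units carried by the mRNAs of each library (vertical axis, CPM per kb of transcript times units in the coding sequence), stacked by gene for the 12 libraries. Ubb forms the larger part of each bar, and young burn replicate 2 reaches 4569 units against 1666 to 2798 in the other libraries.

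Young burn replicate 2 carried high levels of heat shock genes together with Ubb. Relative to the mean of young burn replicates 1 and 3, Ubb was 3.29-fold and Rps27a 0.913-fold there. Of 21 heat shock genes, 19 were above all other 11 libraries in this library, or 90.5%, whereas 18.8% of all genes tested were. Among them, named after their values were seen, Hspa1b, an inducible chaperone of the HSP70 family, was 35.3-fold, Hspa1a 20.9-fold, and Hspb1, a small heat shock protein, 6.92-fold the mean of the other young burn libraries. The exceptions were Fkbp4, a co-chaperone of HSP90, and Hsf1, a transcription factor of heat shock genes. The heat shock list had a median log2 difference of 0.67 in young burn against young sham with this library and 0.12 without it, with 0 of 21 called by edgeR and 0 of the 19 with an adjusted p by DESeq2 either way, and with 12 and 2 genes at an unadjusted edgeR p under 0.05. Of all genes tested, 20.3% with this library and 16% without it had such a p. Summed neutrophil markers were at 27.4 CPM in this library, the highest of the 12, of which S100a8 alone gave 23.0, while Csf3r was at its lowest of the 12 (0.365) and 5 of the 9 markers were at 0. What set this library apart was not tested.

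**Figure D4:**
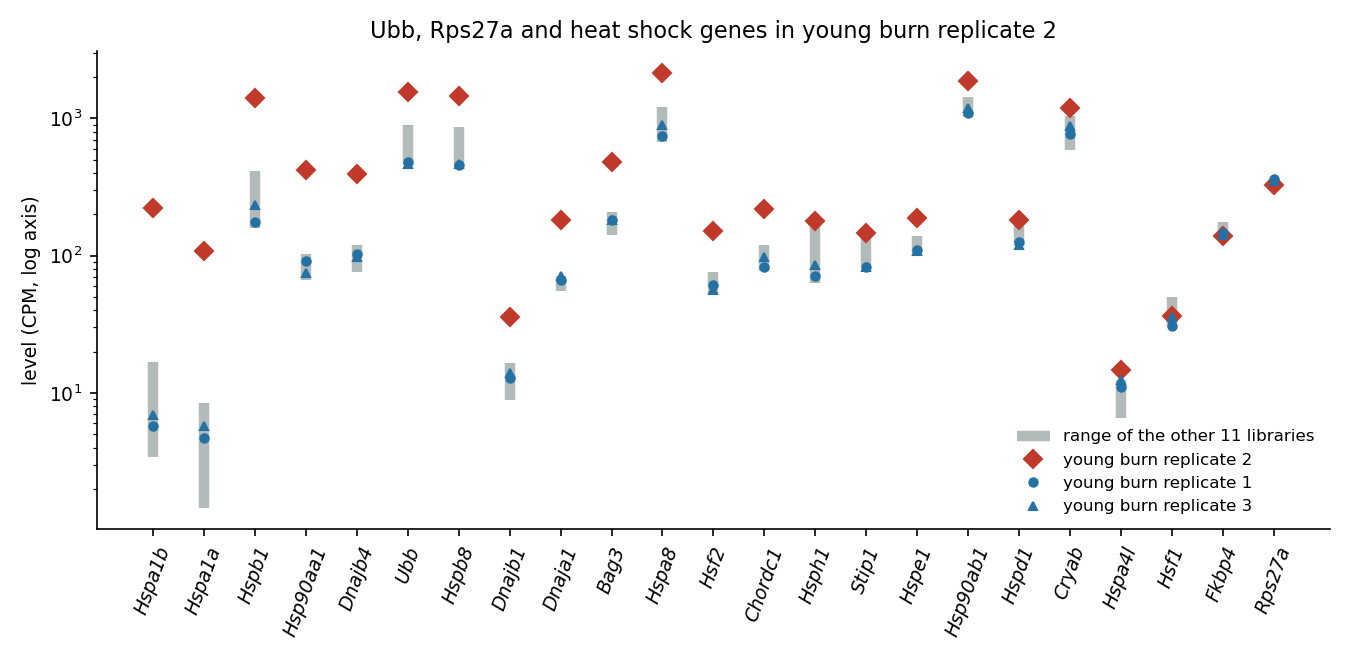
Levels (CPM, log axis) of Ubb, Rps27a and 21 heat shock genes (horizontal axis, ordered by fold) in young burn replicate 2 (red diamonds) and the other young burn libraries (blue), with grey bars for the range of the 11 other libraries. Ubb and 19 of the heat shock genes lie above the bars in replicate 2, and Rps27a lies within its bar.

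The genes that use, recycle and follow ubiquitin were counted list by list over 11 libraries. In adult burn against adult sham, 15 of 32 proteasome subunits rose, 0 fell, all 32 had positive log2 differences and the median was 0.43, against 0.561% of all genes called higher and a median of 0.00. The 4 with the smallest adjusted p were Psma1 (0.70, edgeR adjusted p = 0.00664) and Psma7 (0.59, 0.0186), both of the alpha ring of the core particle, Adrm1 (0.64, 0.0184), a ubiquitin receptor, and Psmd11 (0.63, 0.0184), a lid subunit. Of 16 ubiquitin receptors and shuttle factors 5 rose and the median was 0.32, among them Sqstm1 (0.72, adjusted p = 0.02), the autophagy receptor p62, and Nsfl1c (0.57, 0.0259), a cofactor of the segregase Vcp. Adrm1 and Psmd4 stand in both of these lists. With 12 libraries the medians were 0.43 and 0.32, and by edgeR and by DESeq2 0 members of either list were called, while 22 subunits and 7 receptors had an unadjusted edgeR p under 0.05. Of all genes tested with 12 libraries, 6.87% had such a p. The Ubb difference of 0.63 lay within the range of the called subunits, and that of Rps27a at 0.07 lay below them.

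Few members of the other lists were called in adult burn. Of 14 genes of ubiquitin processing and recycling 1 rose, Psmd14 (0.50, edgeR adjusted p = 0.0329), the deubiquitinase of the proteasome lid. Psmd14 also stands in the list of proteasome subunits. Of 10 ligases linked to muscle atrophy 1 rose, Trim63 (1.15, adjusted p = 0.0259), which encodes MuRF1. Of 21 heat shock genes 1 rose, Hspb1 (0.97, adjusted p = 0.00236). With 12 libraries none of these 3 genes was called (edgeR adjusted p = 0.653 for Psmd14, 0.569 for Trim63 and 0.754 for Hspb1). None of 22 tested genes of ubiquitin activation and conjugation and none of 17 tested ubiquitin-like modifiers was called, with medians of 0.03 and 0.09 and with 4 and 3 genes at an unadjusted edgeR p under 0.05. Of the ribosomal proteins, 0 of 31 tested of the small subunit and 0 of 45 tested of the large subunit were called, with medians of 0.10 and 0.09, close to the 0.07 of Rps27a, and 3 of each list had an unadjusted p under 0.05. DESeq2 on the same 11 libraries also called 0 in these 4 lists, and 27 of the proteasome subunits, where it called 1.45% of all genes higher. Of all genes tested over these libraries, 13.7% had an unadjusted edgeR p under 0.05.

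In young burn against young sham over 11 libraries, the proteasome list had a median of 0.36 with 31 of 32 positive, and 2 members rose, Psma1 (0.61, edgeR adjusted p = 0.0395) and Psma5 (0.72, 0.0447), both of the alpha ring, where 0.458% of all genes were called higher. With 12 libraries the proteasome median was 0.67 with 0 called by edgeR, 29 at an unadjusted p under 0.05 and 20 called by DESeq2, and with 11 libraries DESeq2 called 10. Of all genes tested with 12 libraries, 20.3% had an unadjusted edgeR p under 0.05. DESeq2 called 2.69% of all genes higher with 12 libraries and 1.23% with 11. Of the receptors and shuttle factors 1 rose, Nploc4 (0.85, adjusted p = 0.0448), a cofactor of Vcp. The Ubb difference of -0.18 in this comparison lay below that of every proteasome subunit plotted. None of the modifiers, processing, conjugation, atrophy ligase, heat shock or ribosomal lists had a call by edgeR, with medians of -0.06 to 0.12 and 0 to 4 genes at an unadjusted p under 0.05, whereas DESeq2 called 2 conjugation genes and 1 processing gene. With 11 libraries 16% of all genes had an unadjusted edgeR p under 0.05, and DESeq2 called 2.13% in either direction. The small ribosomal list had a median of 0.01, beside 0.05 for Rps27a.

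**Figure D5:**
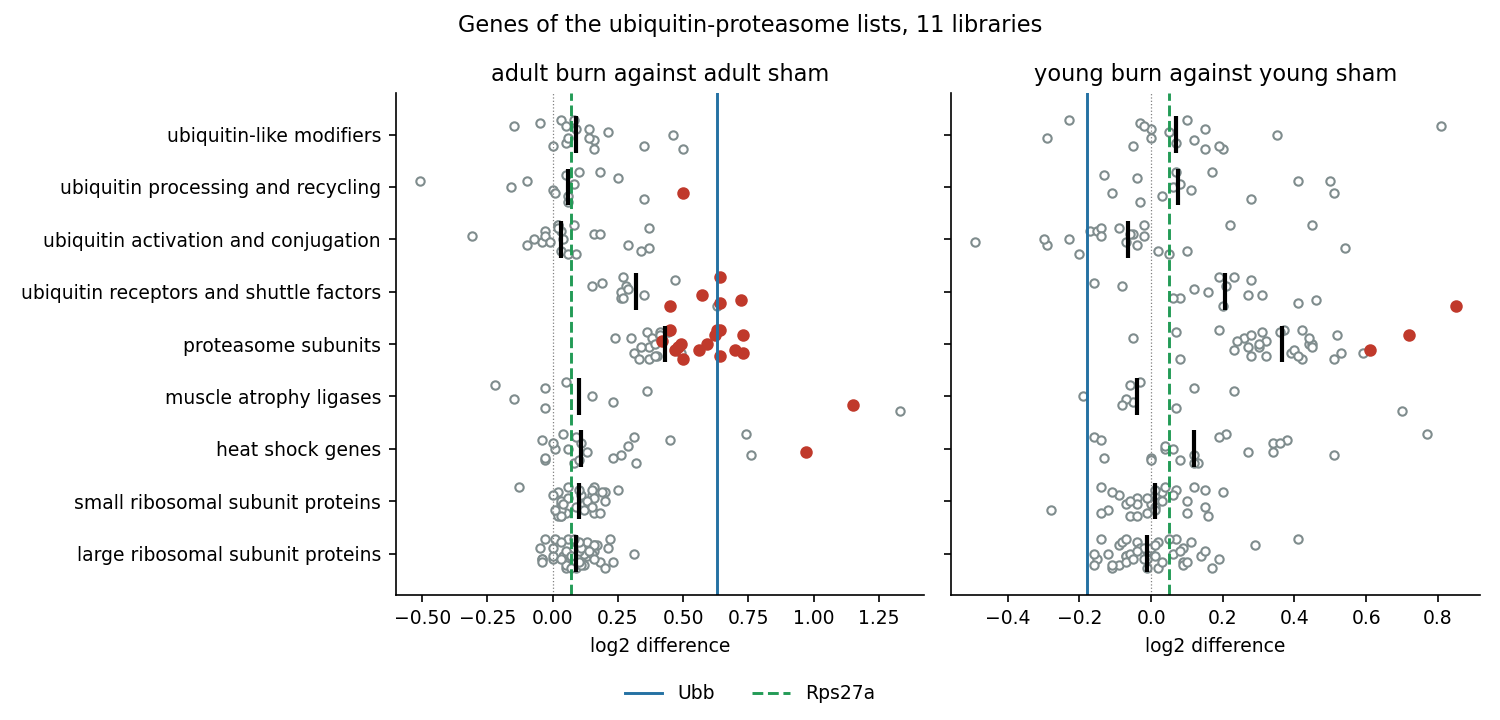
Log2 differences (horizontal axes) of the genes of 9 lists (rows) in adult burn against adult sham and in young burn against young sham, over 11 libraries; filled red points passed the test (edgeR adjusted p below 0.05), black bars are list medians, and vertical lines mark Ubb (solid blue) and Rps27a (dashed green). Ubb lies at 0.63 among the proteasome subunits on the left and at -0.18 to their left on the right, while Rps27a lies at 0.07 and 0.05 near the ribosomal medians.

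In young burn against adult burn over 11 libraries, where 9.54% of genes were called lower, Ubb fell together with 6 of 16 receptors and shuttle factors, 6 of 32 proteasome subunits, 5 of 10 atrophy ligases, 4 of 21 heat shock genes, 4 of 17 modifiers, 3 of 22 conjugation genes and 1 of 14 processing genes. With 12 libraries, where 4.84% of genes were called lower, the counts of lower genes were 3, 0, 2, 0, 1, 0 and 1 in the same order, and Ubb was not called. The called members included Optn (-0.95, edgeR adjusted p = 0.000225), an autophagy receptor, Adrm1 (-0.80, 0.00116), Fbxo32 (-2.54, 0.00204), which encodes atrogin-1, Trim63 (-1.86, 0.000451) and Hspb1 (-0.90, 0.000949). In the other direction, where 11.2% of genes were called higher, only Isg15, an interferon-induced modifier, at 1.64 (adjusted p = 0.00714) and Rpl3, a large subunit protein, at 0.61 (adjusted p = 0.00312) were called in these lists. None of 31 small ribosomal proteins was called by edgeR (3 at an unadjusted p under 0.05, 3 lower by DESeq2), and their median was 0.00, beside 0.11 for Rps27a. Of all genes over 11 libraries, 35.5% had an unadjusted edgeR p under 0.05 and 8.18% were called lower by DESeq2. In the sham comparison Fbxo32 was also lower in young muscle (-1.91, adjusted p = 0.00635), as was Optn (-0.61, 0.00282), among 6.49% of genes called lower, and 6 of 16 receptors and shuttle factors, 3 of 32 proteasome subunits, 3 of 21 heat shock genes, 2 of 22 conjugation genes, 1 of 10 atrophy ligases and 1 of 14 processing genes were called lower there over 11 libraries, whereas Ubb differed by 0.02.

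The patterns most like those of Ubb and Rps27a over the libraries belonged to different genes. By Pearson correlation of log2 CPM over 12 libraries among 11720 protein-coding genes, Ubb was most like Cops2 (r = 0.97), Yy1 (0.966), Zrsr1 (0.964), Pum3 (0.959) and Rsl1d1 (0.959). Over 11 libraries the highest were Nmt1 (0.944), Zfp706 (0.925), Cops2 (0.917), Rabac1 (0.917) and Zrsr2 (0.915), so Cops2, a subunit of the COP9 signalosome, was in each list. Rps27a was most like Cit (0.94), Csnk1g3 (0.925), Zfp85 (0.898), Fxyd2 (0.889) and Lmf2 (0.88) over 12 libraries, and Csnk1g3 (0.948), Cit (0.929), Ackr1 (0.91), Zfp85 (0.895) and Lmf2 (0.892) over 11. Ubb and Rps27a had a correlation of -0.286 with each other over 12 libraries and -0.297 over 11. These values describe libraries that share their scaling and carry no test.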

How the data were processed

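Per the labels and methods, the authors demultiplexed reads with bcl2fastq 2.20, aligned poly-A mRNA reads to GRCm38 with STAR 2.7.5c and deposited raw counts per gene from STAR's gene counting with a Gencode annotation. The 12 miRNA libraries, counted with featureCounts 2.0.1, were not used here. Members, lists and tests were chosen with earlier results of these data known. Genes passing filterByExpr (count minimum 10, total minimum 15) were scaled by TMM and tested with edgeR 4.0.16's quasi-likelihood test, with a mean per group over 12 libraries, two-sided, adjusted by Benjamini-Hochberg over all genes tested, threshold 0.05. Every fit was repeated without young burn replicate 2. Each library came from 1 mouse, and replicate pairs differed by more than sampling noise (chi-square per gene 3.49 to 38.3). Alternatives were DESeq2 1.42.0, limma 3.58.1 voom with sample weights, other scalings, no count filter, only the groups compared, a replicate block, added counts of near-identical copies and leaving out each library. Gene models and sequence came from Gencode M21 on GRCm38, an earlier release than the annotation the authors used, units were counted as coding repeats of 76 codons, and windows were 75 bases, the read length. Up to 4 genes per list and comparison were named by smallest adjusted p among those called with 12 or 11 libraries, and the 5 most correlated genes per member; some genes covered by this rule are not reported here. Scripts were tested on simulated data. Total counts were 4392605 to 5688512 per library. Whether depth or the spread between the 3 mice of a group limited the precision of Ubb and Rps27a was not tested.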

Additional observations from a re-analysis of the deposited data

Results flagged for a closer look

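The interaction of burn and age for Ubb stood out because the test of the difference itself passed by DESeq2 without young burn replicate 2, at -0.82 on the log2 scale (DESeq2 adjusted p = 0.0101). On the same 11 libraries edgeR gave -0.81 (adjusted p = 0.186), and on all 12 libraries edgeR gave 0.00 (adjusted p = 1). Ubb was higher in 3 of 3 adult burn libraries than in every adult sham library, and 2 of 3 young burn libraries lay within the young sham range.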

How the results depend on the processing

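Values are log2 differences over 12 libraries by edgeR unless named, and no cause of a change was tested. Rps27a was called in none of the alternatives run. With only the groups compared in the fit, Ubb in adult burn against adult sham was 0.62 (edgeR adjusted p = 0.0274) and Rps27a in young burn against young sham 0.01. Without a count filter Ubb was 0.64 in both burn comparisons (edgeR adjusted p = 0.0145 in adult and 0.00479 in young mice). limma voom turned Ubb to -0.10 and Rps27a to 0.02 in young burn against young sham and Ubb to -0.71 (adjusted p = 0.0103) in young burn against adult burn. DESeq2 gave 0.00 for Rps27a in young burn against young sham and 0.01 for the Ubb interaction, as did its size factors within edgeR. DESeq2 without young burn replicate 2 gave Ubb 0.64 (adjusted p = 0.000186) in adult and -0.19 in young burn against sham, -0.81 between burn groups and -0.82 in the interaction, and Rps27a 0.04 in young burn against young sham. Library size alone moved the median of all genes by -0.13 between sham groups, 0.25 in young burn against young sham, 0.12 between burn groups and 0.27 in the interaction; Ubb was then -0.13 between sham groups, Rps27a 0.23 in young burn against young sham, and their interactions 0.33 and 0.17.

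Genes called numbered 467 between sham groups, 1 in adult burn, 8 in young burn, 1343 between burn groups and 0 in the interaction. In the same order, only the groups compared gave 1163, 115, 1 and 314 (no interaction could be fitted), voom 1405, 51, 296, 3158 and 2, and no filter 1011, 285 and 1095 in the first 3 and 116 in the interaction. DESeq2 gave 7 in adult burn, 443 in young burn and 1 in the interaction, and without young burn replicate 2 it gave 1161, 211, 191 and, in the interaction, 43. Library size alone gave 615 in young burn.

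Leaving out each library of 12, or of 11 with young burn replicate 2 already out, gave 97 to 1772, 1 to 161, 1 to 697, 390 to 2837 and 0 to 31 genes called. Ubb ranged from -0.10 to 0.13, 0.56 to 0.72, -0.28 to 0.92, -0.88 to 0.31 and -0.91 to 0.29, and Rps27a from 0.11 to 0.19, 0.01 to 0.11, -0.04 to 0.07, 0.03 to 0.17 and -0.12 to 0.03. The Ubb call in adult burn appeared only without young burn replicate 2 among the 12 fits that left out 1 library. Adding counts of near-identical copies, the union exon length and leaving 1 of 11 out were chosen after seeing the data.

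Equal replicate numbers did not pair the samples (correlations of deviations -0.20 to 0.15). With these numbers as a replicate block, Ubb between burn groups was -0.10 and 3 genes were called in adult burn. With the block and without young burn replicate 2, the Ubb call in adult burn against adult sham was lost (0.63, edgeR adjusted p = 0.0632). In that fit Ubb was -0.17 and Rps27a 0.04 in young burn, Ubb -0.78 (edgeR adjusted p = 0.00867) between burn groups, and 1184, 72 and, in the interaction, 4 genes were called.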
